A study of Mus musculus with 6 samples.

Results

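The genes of the NLRP3 inflammasome and of the interleukin-1 axis were examined in mouse atria after a high-fat diet (HFD). The group holds 10 genes, Nlrp3, Pycard, Casp1, Gsdmd, Txnip, Il1b, Il18, Il1rn, Il1r1 and Il1rap. They were chosen by name for what they are known to do, with earlier results of these data known. Each was found by its name in the deposited table, ignoring letter case, and each name stood in 1 row. They are 10 of 43432 genes in the table, of which 24679 had a read in at least 1 mouse.

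RNA came from right and left atrial tissue of wild-type C57/Bl6J mice, 3 on the HFD and 3 on control chow. Both diets began at 6 weeks of age and lasted 10 weeks, so that all mice were of like age and carried no transgene. The titles and the columns of the table give one diet to each sample, while the treatment field gives the opposite diet for all 6. The titles were followed, and every direction below would turn round if the treatment field were right. The sources used here do not say whether animals were pooled, so the p-values measure the spread between these 6 samples.

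The values are normalized counts, that is, reads on a gene divided by 1 size factor per sample. Between 15874251 and 28971508 reads lay on genes, with the most in control mouse 2, where 30.7% of reads were mitochondrial, against 19.5% to 24.4% in the other mice. A signal of 3 reads corresponded to 2.05 normalized counts in control mouse 2 and to between 3.01 and 3.41 in the others, which covers counting error only. The tissue label was checked with 5 genes of atrial myocytes (Nppa, Myl7, Myl4, Sln and Bmp10), and all of them were abundant in every mouse. Their summed level was 440112 to 480118 normalized counts in the control mice and 518575 in HFD mouse 3, but 285064 and 285797 in HFD mice 1 and 2, which thus stood apart from the rest. Markers of ventricular myocytes (Myl2, Myl3, Myh7, Irx4 and Hey2) summed to 17448 normalized counts in control mouse 2 and to between 6921 and 9918 in the other mice, so that this library stood apart as well.

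The NLRP3 inflammasome is a protein complex that forms in the cytosol when a cell senses damage, crystals or loss of potassium. The sensor NLRP3 recruits the adaptor ASC, encoded by Pycard, and ASC recruits caspase-1, which cuts the precursors of interleukin-1β and interleukin-18 and opens the pore-forming protein gasdermin D. Released interleukin-1β binds a receptor made of IL1R1 and the accessory chain IL1RAP and leads to NF-κB activity, while the antagonist encoded by Il1rn occupies the same receptor without a signal. Much of this system is switched on by cleavage of proteins already present, which RNA levels do not measure.

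Of the 10 genes, Txnip was the 1 that rose in HFD atria after adjustment over all genes. Its mean was 18284 ± 5319 normalized counts in HFD atria and 5811 ± 814 in control atria (SD, n = 3 each). The sensor, the adaptor, the protease, the pore protein, interleukin-18 and both receptor chains did not pass the test in either direction. Il1b had a mean of 49.1 ± 42.2 normalized counts in HFD atria and 7.70 ± 8.93 in control atria (SD, n = 3 each), all HFD mice lying above all control mice, but it did not pass the adjusted test either. Over all 15275 genes tested with limma, 0.746% passed an adjusted p of 0.05, 0.484% as higher and 0.262% as lower in HFD atria, beside 1 higher and 0 lower among the 9 members tested. On the recovered reads edgeR called 0.57% of all genes and DESeq2 called 2.88%, and both tools again called 1 member higher and 0 lower. Without adjustment, 6.66% of all genes were higher and 5.55% lower at a p under 0.05, and the members in that class were Txnip, Il1b and Il1r1, all higher. The median log2 fold change was 0.087 for the 9 members tested and 0.00492 for all genes tested. Il1rn was left out of the main limma test because its mean over the 6 mice was under 10 normalized counts. Il1b had a control mean under 10 and passed this filter through the HFD mice, so that the count of members tested lends it no weight.

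**Figure D1:**
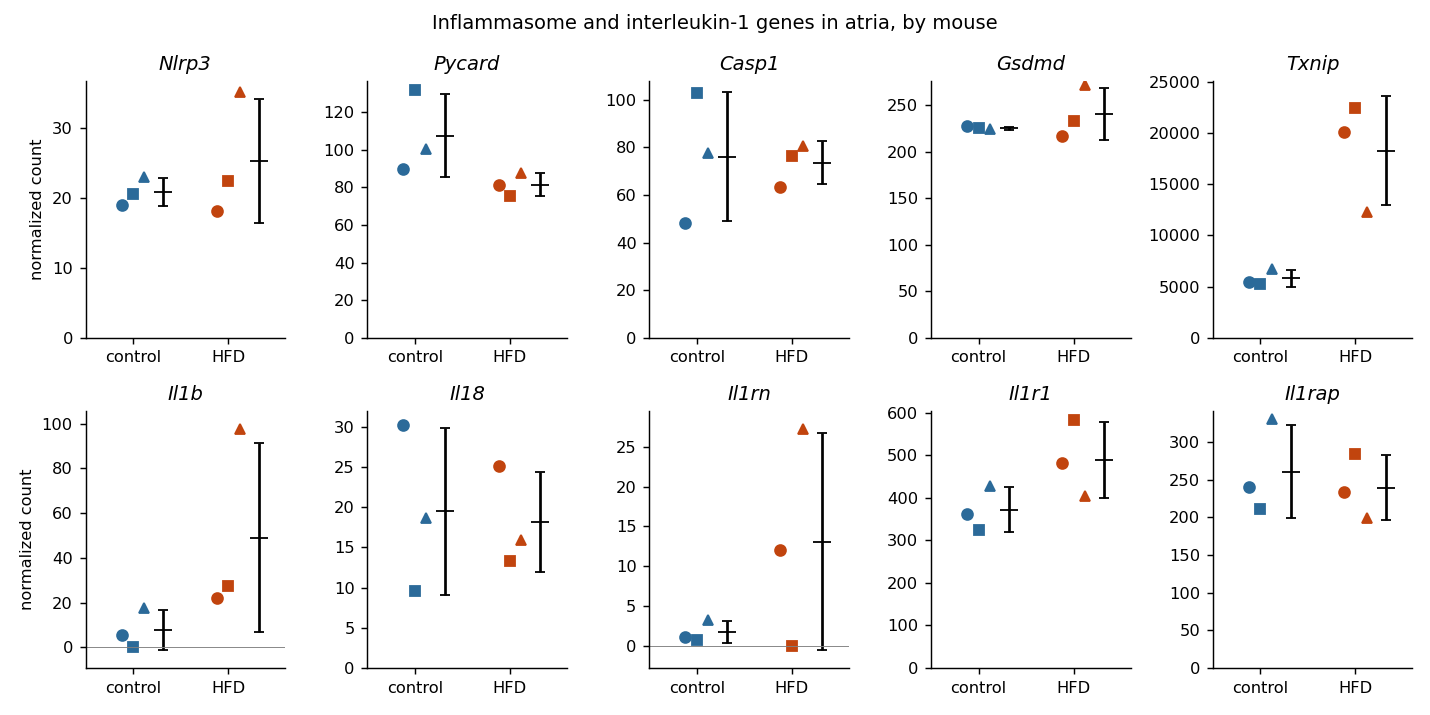
Normalized counts (y axis, linear, a scale of its own for each gene) of the 10 genes in atria of 3 control mice (blue) and 3 HFD mice (orange). Circles, squares and triangles are mice 1, 2 and 3 of each diet, and the black bars to the right are mean ± SD. The Txnip points of the HFD mice, at 12289 to 22435, lie above those of the control mice, at 5256 to 6745, while the points of Nlrp3, Casp1, Gsdmd, Il18, Il1rn, Il1r1 and Il1rap overlap between the diets.

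Txnip encodes thioredoxin-interacting protein, an alpha-arrestin that binds thioredoxin, restrains glucose uptake and has been linked to NLRP3 as a binding partner. The gene lies on chromosome 3 from 96557957 to 96561883 on the plus strand (GRCm38). It is known for strong induction by glucose through the paired transcription factors MLX and MondoA or ChREBP, which bind carbohydrate response elements. The form searched for here was a tandem form, CACGNG repeated in the same orientation after 5 bases. Other arrangements of such elements were not searched for. The 250 bases before the start of Txnip, at chr3:96557707-96557956 on the plus strand (RefSeq, GRCm38.p6), are printed because the member that rose carries the CACGNG motif there. Capitals mark each CACGNG match on either strand.

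Txnip: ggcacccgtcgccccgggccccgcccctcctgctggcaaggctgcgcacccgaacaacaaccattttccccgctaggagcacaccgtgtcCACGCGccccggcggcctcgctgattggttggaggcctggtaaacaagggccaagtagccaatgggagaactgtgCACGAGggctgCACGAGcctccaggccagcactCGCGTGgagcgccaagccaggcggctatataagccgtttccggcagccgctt

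The window holds 4 copies of CACGNG, with first bases 160, 85, 74 and 52 bases before the start. The copies at 85 and 74 are separated by 5 bases and so form the tandem arrangement, whose sequence is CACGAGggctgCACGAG. Among 32851 mouse windows of the same length, 23.5% hold at least 1 copy, 0.244% hold at least 4 and 0.0457% hold the tandem form on either strand. Windows were found for 9 of the 10 members. Casp1 has 1 single copy and Il1rap has 4, and the Txnip window was the 1 among the members' 13 with the tandem form. A match describes letters in this stretch and no bound site. A window without the tandem form may hold an arrangement that was not searched for.

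Txnip stood at 20129, 22435 and 12289 normalized counts in HFD mice 1, 2 and 3 and at 5430, 5256 and 6745 in control mice 1, 2 and 3. The groups did not overlap, and the HFD mouse nearest to the controls was mouse 3. The log2 fold change was 1.62 (95% interval 1.16 to 2.08, adjusted p = 0.00937, limma over all genes), and the ratio of means was 3.15. The same gene was called by edgeR (adjusted p = 0.0134) and by DESeq2 (adjusted p = 9.1e-16) on the recovered reads. The call was lost without control mouse 2, at a log2 fold change of 1.55 with an adjusted p of 0.0678 from limma. It held when any other mouse was left out. Without control mouse 1 or control mouse 3 it held narrowly, with adjusted p-values of 0.0498 and 0.0493 from limma. The call was also lost when limma used no variance trend, with an adjusted p of 0.174.

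The level of Txnip was high in HFD mice 1 and 2, which had the low sums of atrial myocyte markers, and lower in HFD mouse 3, which had the high sum. In HFD mouse 3 alone Txnip was still above every control mouse. Markers of brown adipocytes (Ucp1, Cidea, Elovl3 and Dio2) summed to 616 to 1283 normalized counts in HFD and 187 to 330 in control mice, and those of endothelial cells to 13328 to 14926 and 11105 to 12007, neither overlapping. Of the 5 endothelial genes, 1 was higher without overlap, Pecam1 (log2 fold change 0.57), against 8.86% of all genes tested. The median log2 fold change of the 5 was 0.14, and that of Cdh5 was 0.037. The part of brown adipocytes and endothelial cells in the Txnip result was not tested. In bulk tissue, fewer cells of a type and less RNA per cell cannot be told apart.

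Other alpha-arrestins, the thioredoxin system and the MLX family were read from a list of 12 genes, all tested. None passed the adjusted limma test. At an unadjusted p under 0.05, 4 were higher and 0 lower, against 6.66% and 5.55% of all genes tested. The median log2 fold change was 0.036 over the list. On the recovered reads edgeR called 0 of them and DESeq2 called 2, Arrdc2 and Txnrd1, beside 0.57% and 2.88% of all genes. Arrdc2, an alpha-arrestin related to Txnip, had 581, 574 and 261 normalized counts in HFD mice 1 to 3 and 157, 274 and 139 in control mice 1 to 3. HFD mouse 3 lay inside the control range, as the mouse with the lowest Txnip of its group (log2 fold change 1.28, 95% interval 0.55 to 2.01, adjusted p = 0.115, limma). Arrdc3, which promotes the breakdown of β-adrenergic receptors, had a mean of 1194 ± 177 in HFD and 889 ± 161 in control atria (log2 fold change 0.43, adjusted p = 0.304, limma, n = 3 each), and its groups overlapped. Txnrd1, the cytosolic thioredoxin reductase, had 1410, 1689 and 1899 normalized counts in HFD mice 1 to 3 and 1210, 1137 and 1252 in control mice 1 to 3. Its groups did not overlap, and its log2 fold change was 0.46 (95% interval 0.18 to 0.75, adjusted p = 0.146, limma). Arrdc4, a further alpha-arrestin, had 321, 327 and 332 normalized counts in HFD mice 1 to 3 and 207, 274 and 273 in control mice 1 to 3, also without overlap (log2 fold change 0.39, adjusted p = 0.349, limma). Within the 250 bases before the start, Arrdc1 holds 2 CACGNG copies, Arrdc2 and Arrdc4 hold 1 each and Arrdc3 holds none, and no window of the alpha-arrestin genes Arrdc1 to Arrdc4 holds the tandem form.

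**Figure D2:**
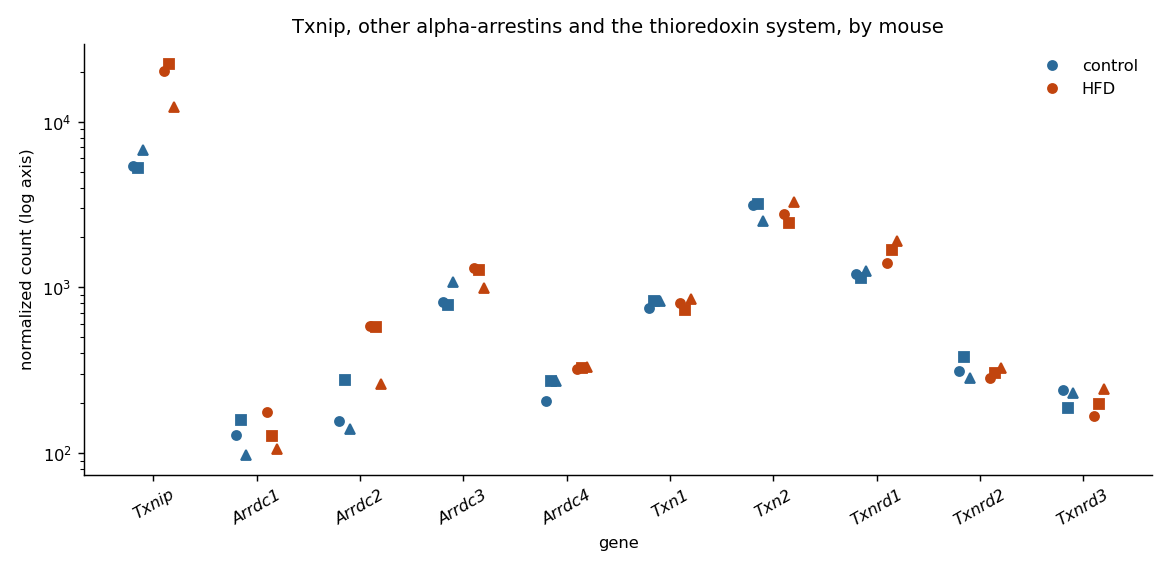
Normalized counts (y axis, log scale) of Txnip, the other alpha-arrestins Arrdc1 to Arrdc4, thioredoxins and thioredoxin reductases in 3 control mice (blue) and 3 HFD mice (orange). Circles, squares and triangles are mice 1, 2 and 3 of each diet. Txnip, Txnrd1 and Arrdc4 do not overlap between the diets, and HFD mouse 3 has the lowest Txnip and the lowest Arrdc2 of its group.

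Nlrp3, the sensor, was among the low genes of the group. It had 18.1, 22.4 and 35.2 normalized counts in HFD mice 1 to 3 and 19.0, 20.5 and 23.0 in control mice 1 to 3. HFD mouse 3 was the highest of the 6 and HFD mouse 1 the lowest, so that the HFD mice spanned the whole control range. The log2 fold change of 0.22 had a 95% interval from -0.70 to 1.13 (adjusted p = 0.884, limma), which spans both directions.

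Pycard, the adaptor, had 81.4, 75.5 and 87.5 normalized counts in HFD mice 1 to 3 and 89.6, 132 and 101 in control mice 1 to 3. Every HFD mouse was below every control mouse, although HFD mouse 3 and control mouse 1 lay close together. Pycard was the 1 member with this pattern, which 9.17% of all genes tested showed, against 8.86% with every HFD mouse higher. Its log2 fold change was -0.38 (95% interval -0.87 to 0.11, adjusted p = 0.544, limma).

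Casp1, the protease, had 63.3, 76.5 and 80.6 normalized counts in HFD mice 1 to 3 and 48.1, 103 and 77.6 in control mice 1 to 3. The control mice held both the lowest and the highest value. The log2 fold change was 0.00746 (95% interval -0.65 to 0.66, adjusted p = 0.996, limma), and its sign changed with the normalization and the tool, so no direction is given.

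Gsdmd, whose cleaved product forms membrane pores, had a mean of 226 ± 1.64 normalized counts in the control mice (SD, n = 3). These values lie closer together than counting error, whose 95% interval ran from 197 to 261 in control mouse 1. It had 217, 234 and 271 normalized counts in HFD mice 1 to 3 and 227, 225 and 224 in control mice 1 to 3. HFD mouse 1 lay below all control mice and the other HFD mice above them, an order that carries little weight beside so narrow a control range. The log2 fold change of 0.087 had a 95% interval from -0.25 to 0.42 (adjusted p = 0.871, limma), the narrowest of the members tested.

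Among other sensors of inflammasomes, 12 genes were in the table, 6 were tested and 0 passed the adjusted test or an unadjusted p of 0.05 by limma, edgeR or DESeq2, with a median log2 fold change of -0.11. Nlrp10 was the highest of them in normalized counts, at 432 ± 21.6 normalized counts in HFD and 532 ± 101 in control atria (log2 fold change -0.28, adjusted p = 0.522, limma, n = 3 each). Naip5, a receptor for bacterial flagellin, had 47.2, 46.9 and 39.8 normalized counts in HFD mice 1 to 3 and 22.4, 35.6 and 33.9 in control mice 1 to 3 without overlap (adjusted p = 0.544, limma). Its reads are uncertain, because Naip genes are near-identical copies. Aim2, a sensor of cytosolic DNA, overlapped between the diets (adjusted p = 0.738, limma). Nlrp12 was at 0 in every mouse and Nlrp6 at 0 in all but control mouse 1.

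Regulators and further pore proteins numbered 16 in the table and 15 tested. No gene of this list passed the adjusted limma test, and the median log2 fold change was 0.21. At an unadjusted p under 0.05, 1 was higher and 0 lower, against 6.66% and 5.55% of all genes tested. By edgeR and by DESeq2 0 were called as well. Ninj1, which ruptures the membrane late in lytic cell death, had a mean of 1119 ± 112 in HFD and 911 ± 113 in control atria with overlapping groups (log2 fold change 0.30, adjusted p = 0.395, limma, n = 3 each). Gsdme, a gasdermin cut by caspase-3, overlapped between the diets (log2 fold change -0.39, adjusted p = 0.462, limma). P2rx7, the ATP-gated channel that lets potassium out upstream of NLRP3, had 157, 169 and 224 normalized counts in HFD mice 1 to 3 and 140, 126 and 156 in control mice 1 to 3. The HFD mouse nearest to the controls exceeded the highest of them by a small margin, and the difference did not pass the test (log2 fold change 0.37, adjusted p = 0.494, limma).

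Il1b, the gene of interleukin-1β, lies on chromosome 2 from 129364570 to 129371139 on the minus strand (GRCm38). It had 22.1, 27.5 and 97.7 normalized counts in HFD mice 1 to 3, from 22, 27 and 86 reads. In control mice 1 to 3 it had 5.6, 0 and 17.5 normalized counts, from 5, 0 and 16 reads. All HFD mice lay above all control mice, but HFD mouse 1 and control mouse 3 lay close, and HFD mouse 3 alone gave most of the HFD reads. The zero in control mouse 2 allows a level of up to 2.05 normalized counts. Summed over mice, 135 of 50183652 reads in the HFD group and 21 of 61381219 in the control group came from Il1b, or 2.69 and 0.342 CPM.

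The fitted log2 fold change of Il1b was 3.02 (95% interval 0.81 to 5.23, adjusted p = 0.232, limma), and it depends on the pseudocount of 1, since a pseudocount of 0.1 gave 4.18. Adjusted p-values ranged from 0.0901 to 0.539 over the processing alternatives, so that none passed the threshold. The ratio of means was 6.38 with all mice. It was 3.22 without HFD mouse 3, 4.25 without control mouse 2 and 17.5 without control mouse 3, so the size of the difference rests on single mice while its direction held in each case.

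Macrophages and monocytes are the best known source of interleukin-1β, and 11 macrophage markers were measured in the same libraries. Their sum was 15790, 13801 and 14288 normalized counts in HFD mice 1 to 3 and 12685, 12216 and 9656 in control mice 1 to 3, without overlap. Of the 11 markers, 1 passed the adjusted limma test as higher (Cd163, log2 fold change 0.95, adjusted p = 0.0310), 7 were higher at an unadjusted p under 0.05 and the median log2 fold change was 0.37. Of all genes tested, 0.484% were called higher and 6.66% were higher at an unadjusted p under 0.05. The change was positive in 10 of the 11 markers, but only 4 were higher without overlap, against 8.86% of all genes tested. Csf1r (log2 fold change -0.0086) and Adgre1 (log2 fold change 0.23) overlapped between the diets. Markers of monocytes and neutrophils summed to 343 to 587 normalized counts in HFD and 303 to 338 in control mice. Of the 587 in HFD mouse 1, 346 came from Mmp9. Of the 10 markers 5 were tested, and Mmp9, Ly6c2, Ccr2 and Plac8 overlapped between the diets. The remaining 1, Csf3r, was higher without overlap, as were 8.86% of all genes tested. Among them the neutrophil gene Ly6g had at most 1 read in any mouse and Retnlg at most 4. S100a9 and Csf3r, also expressed by neutrophils and named after their values were seen, were higher in every HFD mouse than in every control mouse, while S100a8 overlapped. S100a9 had 18.1, 9.18 and 7.95 normalized counts in HFD mice 1 to 3 and 3.36, 1.37 and 2.19 in control mice 1 to 3 and was under the filter, and Csf3r had at least 38.8 in the HFD mice and at most 30.8 in the control mice (adjusted p = 0.389, limma). S100a8 had 14.1, 5.1 and 2.27 normalized counts in HFD mice 1 to 3 and 0, 4.79 and 0 in control mice 1 to 3. Lymphocyte markers summed to 42.8 to 102 in HFD and 41.5 to 68.3 in control mice.

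On the log2 scale, Il1b minus the mean of the macrophage markers was -5.15, -4.73 and -3.04 in HFD mice 1 to 3 and -6.68, -9.29 and -4.88 in control mice 1 to 3. HFD mouse 1 lay below control mouse 3, and the groups overlapped. The difference of 2.64 had p = 0.2 (two-sided exact permutation test), where 0.1 is the smallest p that 3 against 3 mice allow. It was 1.47 without control mouse 2, whose Il1b count was 0, and 3.80 with a pseudocount of 0.1. The part of macrophage number in the Il1b values was not tested.

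**Figure D3:**
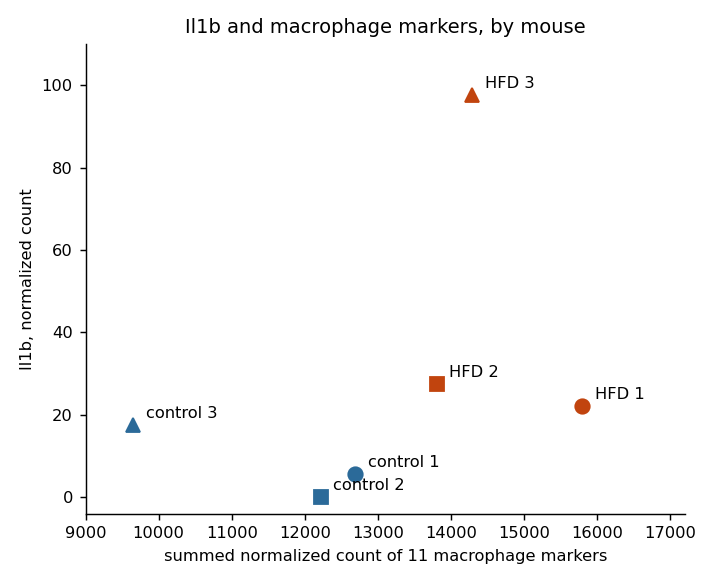
Il1b (y axis, normalized count) against the summed normalized count of 11 macrophage markers (x axis, not starting at 0) in each of 6 mice, control in blue and HFD in orange. The HFD mice lie to the right of the control mice on the x axis, at 13801 to 15790 against 9656 to 12685, and HFD mouse 3 stands out on the y axis at 97.7.

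Il18, the second cytokine that caspase-1 releases, had 25.1, 13.3 and 15.9 normalized counts in HFD mice 1 to 3 and 30.2, 9.58 and 18.6 in control mice 1 to 3. The control mice again held both extremes. The log2 fold change was -0.013 (95% interval -1.20 to 1.17, adjusted p = 0.996, limma), a wide interval at 13 to 27 reads per mouse.

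Il1rn, the antagonist, was near the limit of detection. It had 12, 0 and 24 reads in HFD mice 1 to 3, or 12.1, 0 and 27.3 normalized counts. In control mice 1 to 3 it had 1, 1 and 3 reads, or 1.12, 0.684 and 3.28 normalized counts. The HFD mice held both the highest values and the zero, and no fold of Il1rn alone is given at this depth. Il1b minus Il1rn on the log2 scale was 0.82, 4.83 and 1.80 in HFD mice 1 to 3 and 1.64, -0.75 and 2.11 in control mice 1 to 3. The groups overlapped, and the difference of 1.49 had p = 0.5 (two-sided exact permutation test, smallest possible p = 0.1). The value of HFD mouse 2 rests on an Il1rn count of 0 and that of control mouse 2 on an Il1b count of 0, so the pseudocount sets both. The difference was 0.31 without HFD mouse 2, 0.61 without control mouse 2, 2.32 without HFD mouse 1 and 3.06 with a pseudocount of 0.1.

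The other ligands of the family were scarce. Of 7 in the table, 3 had any read and 1 was tested, Il33, an alarmin of stromal cells, with 213 ± 20.8 normalized counts in HFD and 230 ± 31.0 in control atria (log2 fold change -0.11, adjusted p = 0.851, limma, n = 3 each). Il1a had at most 5.02 normalized counts in any mouse.

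Il1r1, the signaling receptor chain, had 481, 582 and 404 normalized counts in HFD mice 1 to 3 and 363, 324 and 428 in control mice 1 to 3. HFD mouse 3 lay below control mouse 3, so the groups overlapped. The log2 fold change was 0.39 (95% interval 0.015 to 0.76, adjusted p = 0.385, limma). Il1rap, the accessory chain shared with the receptors of IL-33 and IL-36, had 234, 285 and 199 normalized counts in HFD mice 1 to 3 and 240, 211 and 330 in control mice 1 to 3. The lowest value was in an HFD mouse and the highest in a control mouse, with a log2 fold change of -0.11 (95% interval -0.56 to 0.34, adjusted p = 0.877, limma). In mice 3 of both diets Il1b was the highest of its group, while Il1r1 was the lowest of its group in HFD mouse 3 and the highest in control mouse 3.

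Of 9 further receptors and binding proteins of the family, 5 were tested and 0 passed the adjusted limma test or an unadjusted p of 0.05, with a median log2 fold change of 0.19. By edgeR and DESeq2 0 passed the adjusted test. Il1rl2, the receptor for IL-36, had 52.2, 54.1 and 62.5 normalized counts in HFD mice 1 to 3 and 33.6, 36.3 and 49.2 in control mice 1 to 3 without overlap (log2 fold change 0.51, adjusted p = 0.521, limma). Il18r1, the binding chain for interleukin-18, overlapped between the diets (log2 fold change 0.57, adjusted p = 0.543, limma), as did Il1rl1, the receptor for IL-33 (log2 fold change -0.31, adjusted p = 0.781, limma). Il1r2, the decoy receptor, had at most 4.02 normalized counts in any mouse.

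Levels can be ordered between genes per length only, and a transcript length within the deposited coordinates was at hand for 8 members, not for Pycard and Gsdmd. In control atria the mean level in normalized counts per kilobase was 2055 ± 288 for Txnip, 63.9 ± 9.10 for Il1r1, 57.6 ± 13.7 for Il1rap, 50.9 ± 18.2 for Casp1 and 27.7 ± 14.7 for Il18 (SD, n = 3). It was 5.68 ± 6.59 for Il1b, 5.18 ± 0.49 for Nlrp3 and 0.685 ± 0.56 for Il1rn. The ranges of neighbours overlapped from Il1r1 to Il18 and between Il1b and Nlrp3, but not between Txnip and Il1r1, Il18 and Il1b, or Nlrp3 and Il1rn. In HFD atria the level per kilobase was 6468 ± 1881 for Txnip, 84.1 ± 15.3 for Il1r1, 52.9 ± 9.54 for Il1rap, 49.1 ± 6.05 for Casp1, 36.2 ± 31.1 for Il1b, 25.8 ± 8.87 for Il18, 6.28 ± 2.21 for Nlrp3 and 5.30 ± 5.52 for Il1rn. There Il1b stood above Il18 in the order of means, but the ranges of these neighbours overlapped. Both receptor chains had higher mean levels per kilobase than Il1b in both diets, and a bulk library does not say in which cells.

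**Figure D4:**
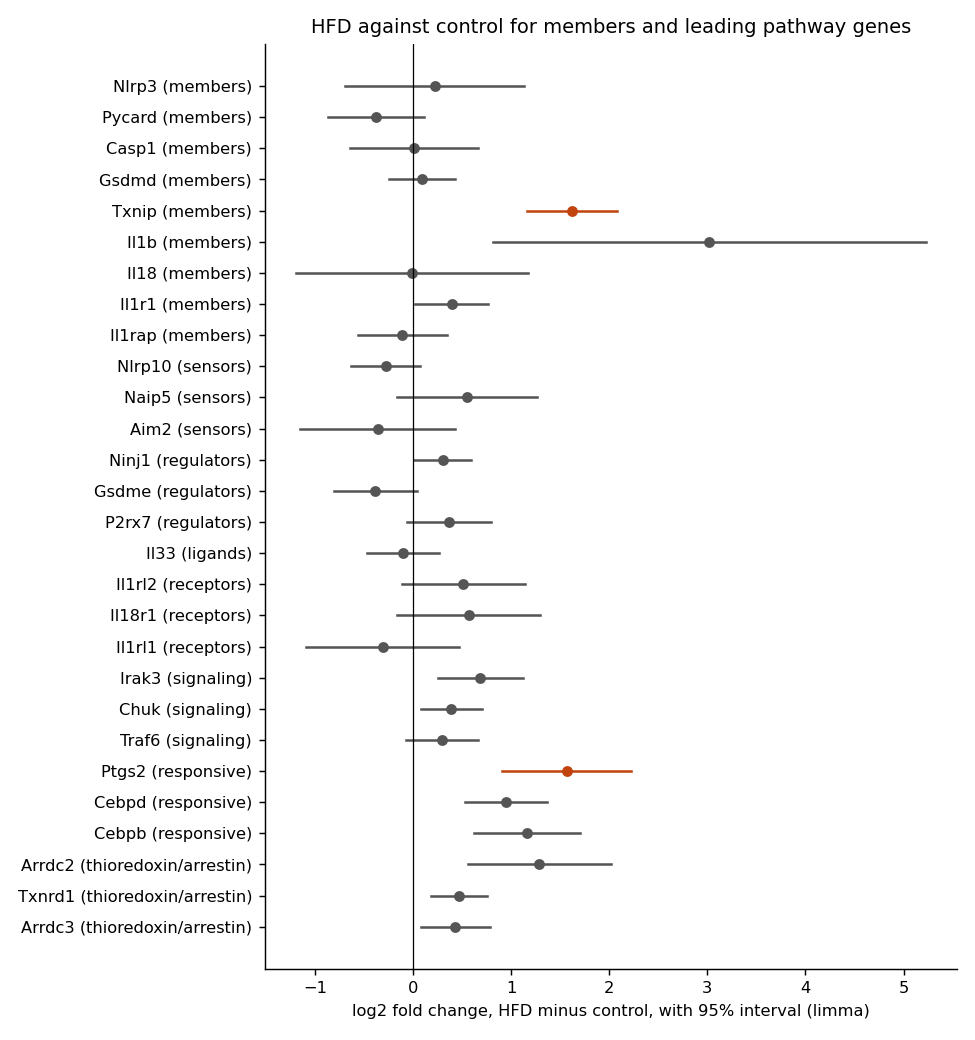
Log2 fold change, HFD minus control (x axis), with its 95% interval from limma for the 9 members tested and for the genes of each pathway list with the smallest unadjusted p (named on the y axis with their list). Orange marks a gene past the adjusted threshold of 0.05, which Txnip and Ptgs2 reached, and the interval of Il1b is the widest, from 0.81 to 5.23.

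Downstream of the receptor, the adaptor MyD88, the IRAK kinases and TRAF6 pass the signal to the IKK complex and NF-κB. All 21 genes of this list were tested, none passed the adjusted limma test, and the median log2 fold change was 0.14. At an unadjusted p under 0.05, 2 were higher and 0 lower, against 6.66% and 5.55% of all genes tested. By edgeR and DESeq2, too, 0 passed and 2 were higher at an unadjusted p under 0.05. Irak3, a member of the kinase family that restrains this signal, had 205, 143 and 183 normalized counts in HFD mice 1 to 3 and 118, 105 and 104 in control mice 1 to 3. The groups did not overlap (log2 fold change 0.68, 95% interval 0.25 to 1.11, adjusted p = 0.154, limma). Chuk, which encodes IKKα, had 658, 634 and 585 normalized counts in HFD mice 1 to 3 and 473, 413 and 556 in control mice 1 to 3, again without overlap (log2 fold change 0.39, adjusted p = 0.292, limma). Traf6 overlapped between the diets (log2 fold change 0.29, adjusted p = 0.530, limma).

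Genes that NF-κB and interleukin-1 are known to induce numbered 24 in the table, of which 20 were tested. Of these, 1 passed the adjusted limma test as higher and 0 as lower, 9 were higher and 0 lower at an unadjusted p under 0.05, and 10 had every HFD mouse above every control mouse while 1, Cxcl1, had every HFD mouse below. Over all genes tested, 6.66% were higher and 5.55% lower at an unadjusted p under 0.05, and 8.86% and 9.17% had every HFD mouse above or below. The median log2 fold change was 0.33. On the recovered reads edgeR called 0 of them, with 9 higher at an unadjusted p under 0.05, and DESeq2 called 6 higher and 0 lower. Of all genes, edgeR called 0.57% and DESeq2 2.88%. Cxcl1 had an HFD mean of 9.85 normalized counts and passed the filter on low values through the control mice. The list was chosen with earlier results of these data known, so its counts are no independent evidence of a response. These genes respond to many other signals as well.

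Ptgs2, which encodes the prostaglandin-forming enzyme COX-2, passed the adjusted limma test as higher in HFD atria. It had 126, 151 and 192 normalized counts in HFD mice 1 to 3 and 48.1, 36.3 and 77.6 in control mice 1 to 3 (log2 fold change 1.56, 95% interval 0.90 to 2.22, adjusted p = 0.0482, limma). The groups did not overlap, and HFD mouse 3 was the highest. The call was lost in all 6 fits that left out 1 mouse, while the log2 fold change without 1 mouse stayed between 1.32 and 1.85. It was also lost by edgeR (adjusted p = 0.0620) and by limma without a variance trend (adjusted p = 0.183). DESeq2 called the gene (adjusted p = 0.000564).

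Cebpd, a transcription factor of the acute-phase response, had 645, 441 and 649 normalized counts in HFD mice 1 to 3 and 342, 308 and 244 in control mice 1 to 3. Its groups did not overlap, and it lay just outside the threshold (log2 fold change 0.95, 95% interval 0.53 to 1.36, adjusted p = 0.0550, limma). Cebpb, a related factor, had 965, 875 and 804 normalized counts in HFD mice 1 to 3 and 481, 514 and 245 in control mice 1 to 3, also without overlap (log2 fold change 1.16, 95% interval 0.62 to 1.70, adjusted p = 0.0657, limma). The cytokines Il6 and Tnf and the chemokine Cxcl2 had means under 10 normalized counts and were left out of the main limma test. The log2 fold changes of the list ranged from -1.28 for the neutrophil attractant Cxcl5 to 2.30 for Lcn2, which encodes the iron-carrier-binding protein lipocalin-2, with adjusted p-values of 0.530 and 0.0657 from limma. Both were named after their values were seen, and Lcn2 did not overlap between the diets. Cxcl5 had means of 6.22 normalized counts in HFD and 14.6 in control atria and passed the filter on low values through the control mice.

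**Figure D5:**
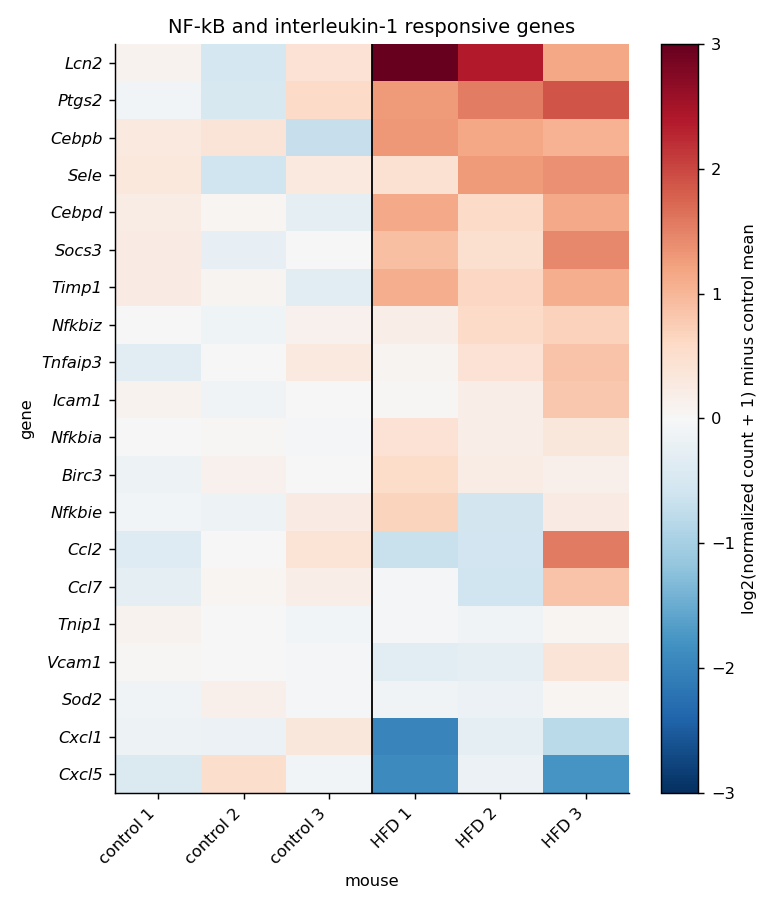
Log2(normalized count + 1) minus the mean of the 3 control mice (colour, red higher and blue lower) for the 20 tested genes that NF-κB and interleukin-1 are known to induce (y axis, ordered by fold change) in each of 6 mice (x axis, control left of the black line and HFD right). The upper rows are red in all 3 HFD mice, and the rows below them are mostly pale. Among these, Ccl2 and Ccl7 are red in HFD mouse 3, while Ccl2 is blue in HFD mice 1 and 2. Cxcl1 and Cxcl5 at the foot are blue, to differing depth, in the HFD mice.

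Over all 7 pathway lists, 101 genes were in the table and 80 were tested, with 1 called higher and 0 lower by limma. At an unadjusted p under 0.05, 16 were higher and 0 lower, against 6.66% and 5.55% of all genes tested, and the median log2 fold change was 0.18. The lists were chosen with earlier results of these data known, so these counts are no independent evidence of a response. In 31 of the 80 (38.8%) HFD mouse 3 was the highest of the 6 mice, as it was in 4 of the 10 members, while it was the highest in 20.3% of all genes tested. Within its group, HFD mouse 3 had the most Il1b, Nlrp3, Gsdmd, Il1rn, Casp1 and Pycard and the least Il1r1, Il1rap and Txnip.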

How the data were processed

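Directional libraries of atrial RNA were sequenced by the authors, who aligned reads to GRCm38 with STAR, kept unique alignments, quantified genes with Salmon and compared diets with DESeq2. Strand use in counting is not stated in the sources used here. The deposited signal is the read count divided by a DESeq2 size factor. The authors' columns of log2 fold change, standard error, p-value, adjusted p-value and ranking scores were not used. All values were whole multiples of 1 read (100% within a tolerance of 0.01), so reads were recovered. The 1 row without a gene was 0 throughout and was left out.

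The diets were compared over all genes with a mean of at least 10 with limma 3.58.1 in R 4.3.3 (variance trend, all 6 samples, no covariates) on log2(normalized count + 1), which understates changes of low genes, with Benjamini-Hochberg adjustment. Single values were compared with exact permutation tests (scipy 1.17.1). edgeR 4.0.16 and DESeq2 1.42.0 on recovered reads were alternatives, and limma was tested on simulated data. Members and lists were chosen with earlier results of these data known. Text names all members, called pathway genes and the 3 smallest p-values per list. GENCODE gave names to 97.8% of identifiers, and list genes without such a name were left out. A gene of the responsive list is not reported here and enters no count of the lists. The most similar libraries correlated at 0.968, so none was a duplicate.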

Additional observations from a re-analysis of the deposited data

How the results depend on the processing

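With limma without a variance trend 0 genes passed the adjusted test over all genes, members and pathway lists, while 1717, 2 and 17 had an unadjusted p under 0.05. DESeq2 called 448 genes in all (2.88% of those it adjusted) and 8 of the pathway genes, and edgeR called 87 (0.57%) and 0, with 15 pathway genes at an unadjusted p under 0.05, and both called 1 member, Txnip. A log2 fold change above 1 as a further criterion left 69 genes of 114, no filter on low values gave 3 pathway genes and a minimum of 10 in every sample gave 2. Leaving out 1 mouse gave 14 to 342 genes in all, 0 to 1 members and 0 to 3 pathway genes. The 14 genes, with 0 members, came without control mouse 2 and the 342 without HFD mouse 3, which also gave the 3 pathway genes, and 0 pathway genes were left without any other mouse, with 11 to 16 at an unadjusted p under 0.05. The cause was not tested, though fewer samples entered these fits.

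Directions turned for members near 0. Casp1 had log2 fold changes of -0.0034 with TMM scaling, -0.065 with edgeR and -0.063 with DESeq2, and -0.28 to 0.25 without 1 mouse. Without 1 mouse, Il18 lay between -0.42 and 0.36, Nlrp3 between -0.043 and 0.42, Gsdmd between -0.0025 and 0.16 and Il1rap between -0.25 and 0.071. Txnip, Il1b, Il1r1 and Pycard kept their direction under every alternative that gave them a value. Il1b and Il18 have no value with at least 10 in every sample, nor has Il1b minus Il1rn under quantile normalization.

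The replicate numbers did not pair mice, since deviations of same-numbered mice correlated at 0.12, -0.027 and -0.00386 and not every mouse correlated best with its own number. With the number as a replicate block, 157 genes, 1 member and 5 pathway genes passed. Depth limits the members with few reads, Il1rn among them, which the main limma test left out. With no filter on low values, Il1rn had an adjusted p of 0.746 from limma.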

Other observations

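Il18rap, the signaling chain of the interleukin-18 receptor, lay under the filter on low values and was chosen after its values were seen. It had 8.04, 8.16 and 17.0 normalized counts in HFD mice 1 to 3 and 0, 0 and 3.28 in control mice 1 to 3. The HFD mice lay above the control mice, the control values were at or under 3 reads, and the main limma test left the gene out.

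Tnf, also under the filter and chosen after its values were seen, had 2.01, 2.04 and 18.2 normalized counts in HFD mice 1 to 3 and 7.84, 13.0 and 5.47 in control mice 1 to 3. The HFD mice held both the lowest and the highest values, and the highest was in HFD mouse 3, as for Il1b. Itgax, a marker of dendritic cells and of some macrophages, had 15.1, 18.4 and 70.4 normalized counts in HFD mice 1 to 3 and 17.9, 37.0 and 21.9 in control mice 1 to 3, again with HFD mouse 3 the highest. Ccl2, a chemokine for monocytes, had 97.7 normalized counts in HFD mouse 3, against 20.1 and 21.4 in HFD mice 1 and 2 and 24.6, 32.2 and 43.7 in control mice 1 to 3.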
